A study of Mus musculus with 12 samples.

Results

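Enzymes that add methyl groups to histone lysines, or remove them, were followed in mouse embryonic stem cells during the first hours of retinoic acid (RA). The set is made of every probe set whose platform annotation gives a single gene symbol starting with Kdm, Kmt, Setd, Suv39h, Ehmt or Nsd and a digit, or the symbol Dot1l. It holds 121 probe sets of 41 genes, out of 18193 genes tested. Of these, 19 are counted here as methyltransferases (writers) and 18 as demethylases (erasers). The 4 further SET-domain proteins, Setd3, Setd4, Setd5 and Setd6, are known for other or uncertain substrates. Kmt2e is counted among the writers, though no enzyme activity was measured. A further probe set, annotated to Kdm6b and 1700064E03Rik together, lies outside this rule. Each of the 41 symbols was found in the RefSeq mouse gene table. The arrays measured RNA, and neither the proteins nor histone methylation.

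The cells were KH2, an embryonic stem cell line built for inserting inducible transgenes. The 12 arrays form 4 groups of 3: no RA, and 2, 4 or 6 h in 0.3 µM RA. All cells were grown on feeder cells, and RNA from each was read on an Affymetrix mouse expression array as log2 signal. RA was given in a differentiation medium that the untreated cells are not said to have received, so RA and the change of medium cannot be told apart. The labels give 2 accounts of the last step: after 30 min on gelatin, one keeps the cells that adhered and the other spins down the medium. They do not say whether replicates A, B and C were separate cultures, so the p-values cover only how far these arrays spread, and that spread may be technical.

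A methyl group on a histone lysine acts through its position. Methylation of H3K4 and H3K36 marks active promoters and transcribed gene bodies, H3K9 and H4K20 methylation marks heterochromatin, and H3K27 methylation is the mark of Polycomb repression. Most writers carry a SET domain, while Dot1l, the H3K79 methyltransferase, does not. Erasers are either amine oxidases (Kdm1a and Kdm1b) or dioxygenases with a JmjC domain (the other Kdm genes). In stem cells, many developmental genes carry H3K4 and H3K27 methylation together. Kdm6b removes H3K27 methylation and is known for its part in switching on such genes.

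RA acts through nuclear receptors that bind pairs of short DNA half-sites. The promoters of 4 members, picked by no fixed rule, are printed. They let the letters around the starts of genes called higher (Kdm3a and Kdm4a) and lower (Ehmt2 and Setd7) be compared. They come from RefSeq (build GRCm38.p6) and cover 250 bases before and 50 bases after the start that lies farthest upstream. Each is written 5′ to 3′ on the gene's strand, and capitals mark matches to a half-site on either strand. The forms searched were the full half-site AGGTCA and its variants, spelled AGTTCA, then GGGTCA, and also GGTTCA. Each printed window holds at most 1 match, so none overlap in them. Of the windows not printed, those at other starts of Kdm3a hold 0 and 2 matches, and that of Ehmt2 holds 0. The farthest upstream window of Kdm4c, the member with the largest called fall, holds 1 AGGTCA and is not printed. The Kdm3a promoter is chr6:71632868-71633167 (minus strand), and its match, TGAACC, starts 3 bases before the gene's start. The Kdm4a promoter, at chr4:118179994-118180293 on the minus strand, holds none. Ehmt2, at chr17:34898224-34898523 on the plus strand, has TGACCC starting 22 bases before its start. Setd7, at chr3:51560774-51561073 on the minus strand, has TGAACC starting 212 bases before its start.
Kdm3a: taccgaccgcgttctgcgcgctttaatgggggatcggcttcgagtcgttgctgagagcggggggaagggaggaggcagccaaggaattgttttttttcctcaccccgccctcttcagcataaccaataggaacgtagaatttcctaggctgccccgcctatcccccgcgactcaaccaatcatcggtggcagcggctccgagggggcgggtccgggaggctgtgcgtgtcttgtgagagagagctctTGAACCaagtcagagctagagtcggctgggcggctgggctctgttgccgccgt
Kdm4a: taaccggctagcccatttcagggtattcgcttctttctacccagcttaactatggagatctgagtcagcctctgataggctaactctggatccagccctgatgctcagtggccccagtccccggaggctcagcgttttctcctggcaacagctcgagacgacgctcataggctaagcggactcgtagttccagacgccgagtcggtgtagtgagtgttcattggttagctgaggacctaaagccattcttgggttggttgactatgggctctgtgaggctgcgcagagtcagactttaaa
Ehmt2: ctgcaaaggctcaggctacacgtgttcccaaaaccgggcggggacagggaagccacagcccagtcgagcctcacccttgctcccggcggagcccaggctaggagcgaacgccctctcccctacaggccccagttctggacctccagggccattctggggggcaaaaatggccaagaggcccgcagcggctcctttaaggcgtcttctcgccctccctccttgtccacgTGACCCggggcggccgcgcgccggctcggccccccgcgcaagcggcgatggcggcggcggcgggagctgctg
Setd7: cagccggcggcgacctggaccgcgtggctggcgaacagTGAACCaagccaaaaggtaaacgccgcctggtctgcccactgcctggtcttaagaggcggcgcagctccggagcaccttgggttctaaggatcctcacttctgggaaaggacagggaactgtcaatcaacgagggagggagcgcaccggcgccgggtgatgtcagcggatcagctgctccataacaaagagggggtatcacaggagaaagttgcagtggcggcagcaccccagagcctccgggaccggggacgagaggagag

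The RefSeq table held 41 promoters of 30 members, and no entry for Kdm6b or Nsd2. At least 1 half-site stood in 16 of these 41 promoters (39.0%), against 43.7% of all 32851 promoters of the table. The full half-site AGGTCA stood in 12.2% of the members' promoters, against 16.3% of all. No member promoter held 2 half-sites on one strand spaced by 1, 2 or 5 bases, the spacings that RA receptors are known to use, and 0.59% of all promoters did. Member promoters were richer in G and C than the rest, with a median of 63.7% against 52.7%, and held a median of 28 CG pairs, against 7. These matches describe the letters in the windows only.

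Before the comparisons, 1 array needs a remark. Untreated replicate C lay farther from its group mean than the other 11 arrays: its deviations over all genes had an SD of 0.197, against 0.130 and 0.135 for untreated A and B and 0.0816 to 0.106 for the RA arrays. Over the 41 genes that SD was 0.281 in untreated C, against 0.143 to 0.171 in untreated A and B and 0.0510 to 0.0847 in the RA arrays. The writers Setd1b and Kmt5b stood out, with 10.02, 9.63 and 8.33 for Setd1b and 9.11, 9.28 and 7.90 for Kmt5b on untreated A, B and C. Feeder fibroblast markers (19 of 20 measured) had a mean log2 signal of 8.77 to 9.02 on the RA arrays, against 8.69, 9.03 and 8.35 on untreated A, B and C, and a summed linear signal of 17290 to 21590 on the RA arrays, against 18140 to 21940 on the untreated ones. The part of feeder RNA in the results was not tested, and in such a mixture fewer cells of a type and less RNA per cell cannot be told apart. The 10 embryonic stem cell markers had a mean log2 signal of 12.49 to 12.51 on untreated arrays and 12.45 to 12.48 at 2 h. It was lower later, with 12.23 to 12.33 at 4 h and 12.2 to 12.29 at 6 h. Their summed linear signal was 61330 to 63420 without RA and 52240 to 55150 at 6 h. Such means do not show the single changes of the 10 markers. Of them, 1 was called higher (Nanog, 0.48) and 1 lower (Klf4, -0.64) at 2 h, with 1.50% and 1.19% of all genes. At 4 h, 1 was higher and 5 lower (12.8% and 14.1% of all genes), and at 6 h, 2 and 5 (15.0% and 14.7%). The difference of Klf4 was -1.23 at 6 h. The RA targets Cyp26a1, Rarb, Hoxb1, Stra8 and Dhrs3 were called higher at every time, by 1.43 to 6.85 on the log2 scale.

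**Figure D1:**
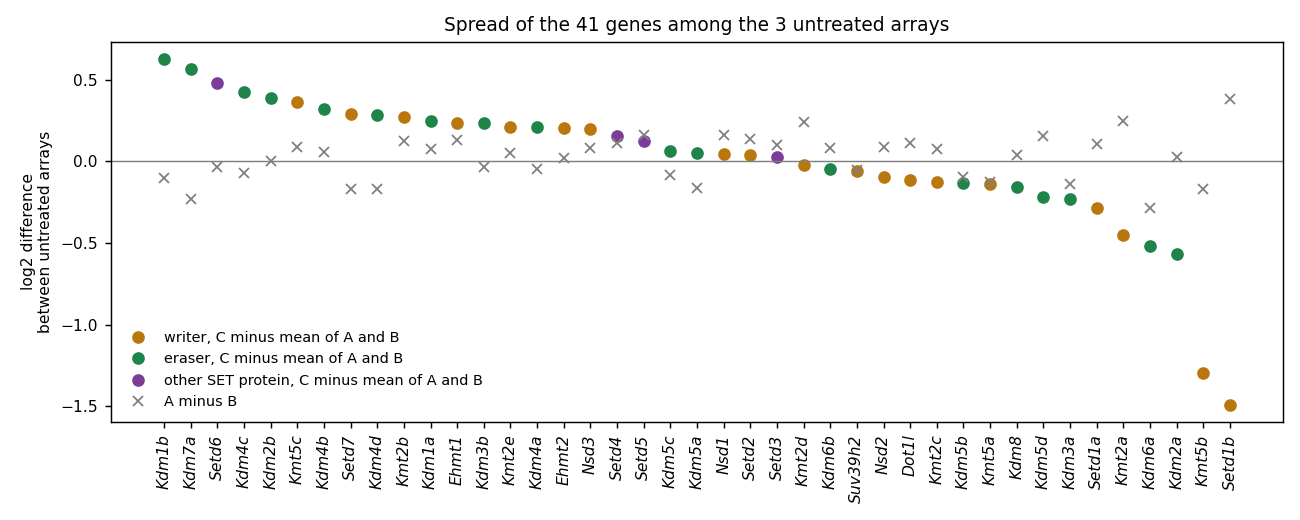
Log2 difference between untreated arrays for each of the 41 genes, ordered from left to right by replicate C minus the mean of A and B (filled points, coloured by role), with A minus B as grey crosses. Replicate C lies farther out than A lies from B for most genes, and Kmt5b and Setd1b lie lowest.

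A gene was called when its limma adjusted p was under 0.05 with Benjamini-Hochberg adjustment over all 18193 genes, each read from its brightest probe set. After 2 h, 2 members were called higher and 1 lower, with 1.50% of all genes called higher and 1.19% lower. After 4 h, 8 members (19.5%) were called higher and 9 (22.0%) lower, and the shares of all genes were 12.8% higher and 14.1% lower. After 6 h, 6 members (14.6%) were called higher and 7 (17.1%) lower, which is close to the 15.0% and 14.7% of all genes. Over the 3 times, 19 of the 41 genes were called at least once: 9 erasers, 6 writers and all 4 of the other SET proteins. The share of all genes called at least once was not counted, so the 19 cannot be set against it. The 22 others were not called at any time. The call nearest the threshold was Kmt2e at 2 h (adjusted p = 0.0414), Suv39h2 at 4 h (0.0321) and Setd5 at 6 h (0.0368), and the nearest misses were Kdm4c (0.0943), Kdm1b (0.0565) and Kmt5c (0.0511). All comparisons with no RA share the same 3 untreated arrays.

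Without untreated replicate C, 3 members were called higher and 1 lower at 2 h (all genes 2.07% and 1.97%). At 4 h there were 10 and 11 (14.7% and 14.4% of all genes), and at 6 h 11 and 7 (17.9% and 15.9%). The calls shared with the 12-array fit were 2 of 3 at 2 h, 15 of 17 at 4 h and 11 of 13 at 6 h, all in the same direction. Calls lost without C were Kmt2e at 2 h, Kdm4b and Suv39h2 at 4 h, and Kdm5c and Setd5 at 6 h. Kdm1b, Kdm3b and Kdm7a were then called higher at 4 and 6 h, and Kdm2a and Kmt5b lower at both.

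**Figure D2:**
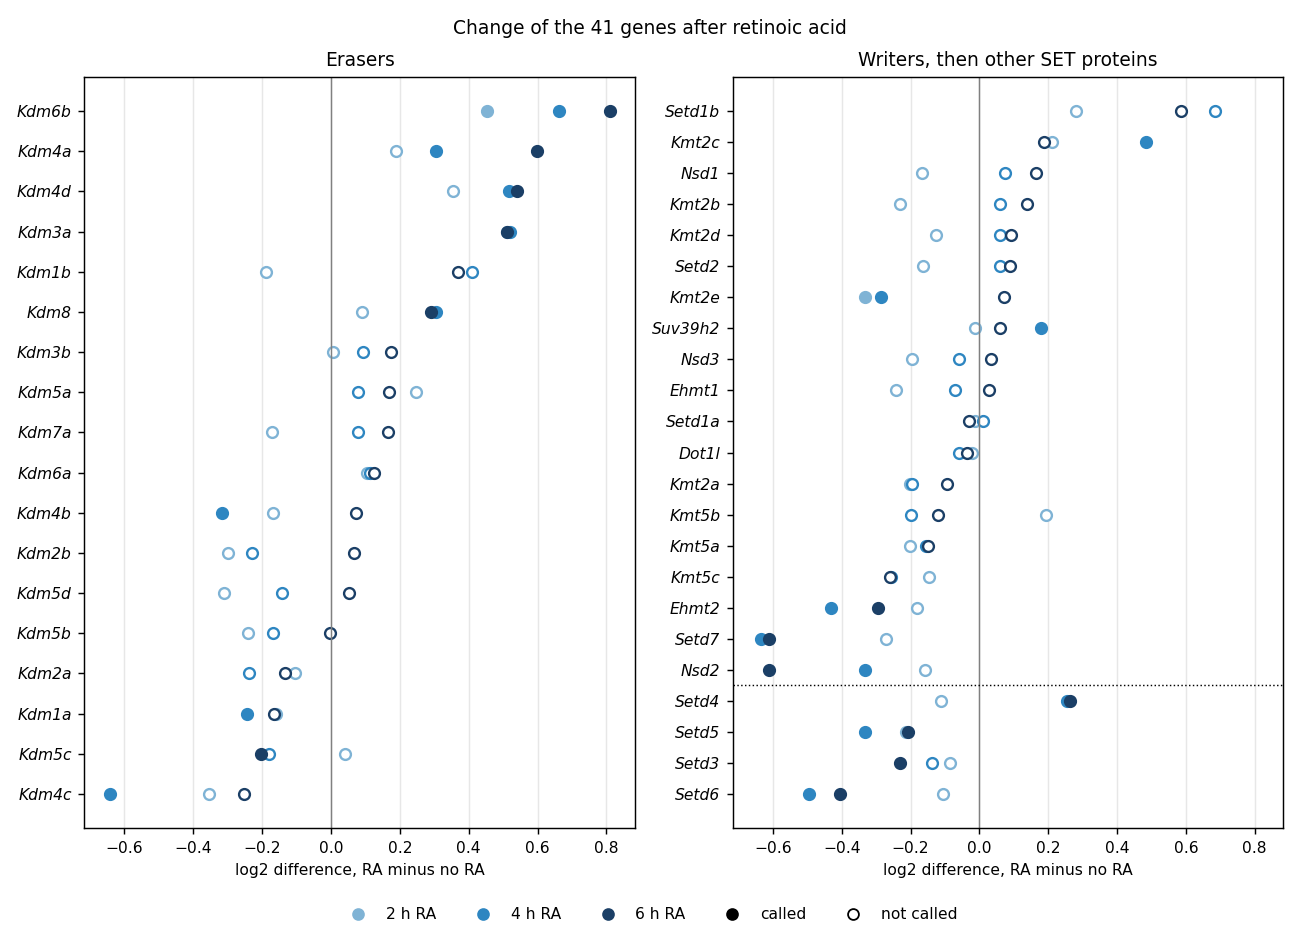
Log2 difference from no RA after 2, 4 and 6 h of RA for each gene, erasers on the left and writers followed by the other SET proteins on the right, ordered by the 6 h value (n = 3 arrays per group). Filled points were called, and the right end of the eraser panel is held by Kdm6b at 0.81.

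Among the erasers, Kdm6b showed the largest called rise among the genes as read from their brightest probe sets, at 6 h. It read 9.74, 9.66 and 9.65 without RA, 10.09, 10.15 and 10.18 after 2 h, 10.26, 10.38 and 10.40 after 4 h, and 10.40, 10.58 and 10.51 after 6 h. Every RA array lay above every untreated one. The rise was 0.45 at 2 h, 0.66 at 4 h and 0.81 at 6 h on the log2 scale (SE 0.065 each), or 1.37-fold, 1.58-fold and 1.75-fold, with adjusted p-values of 0.00264, 2.94e-05 and 5.14e-06. Its paralogue Kdm6a, an X-linked H3K27 demethylase, read 9.58 to 10.24 without RA and differed by 0.10, 0.11 and 0.13 at 2, 4 and 6 h, with no call. The adjusted p of Kdm6a was 0.547 or more, and its untreated arrays spanned all of its RA arrays.

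The H3K9 erasers held both rises and falls. Kdm3a, which removes mono- and dimethylation, read 11.69, 11.83 and 11.53 without RA, 12.19, 12.17 and 12.22 after 2 h, 12.23, 12.23 and 12.14 after 4 h, and 12.18, 12.31 and 12.10 after 6 h. It rose by 0.51, 0.52 and 0.51 at 2, 4 and 6 h (SE 0.080, 1.43-fold at each time, limma adjusted p = 0.00495, 0.000589 and 0.00051), and no RA array overlapped the untreated ones.
Kdm4a, a demethylase of H3K9 and H3K36 trimethylation, was called at the 2 later times. It read 8.43, 8.48 and 8.67 without RA, 8.73, 8.74 and 8.67 after 2 h, 8.79, 8.80 and 8.90 after 4 h, and 9.15, 9.10 and 9.12 after 6 h. The difference was 0.19 at 2 h (not called), 0.30 at 4 h and 0.60 at 6 h (SE 0.068, adjusted p = 6.2e-05), and at 6 h it was 0.41 above its 2 h level (adjusted p = 0.000792). Its other probe set, which is dim, differed by 0.01 at 4 h and -0.10 at 6 h with no call, and the average of both gave 0.16 at 4 h (adjusted p = 0.0633) and 0.25 at 6 h (adjusted p = 0.0054).

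Kdm4c, a related demethylase, moved the other way. It read 10.05, 10.12 and 10.51 without RA, 9.87 on each array after 2 h, 9.54, 9.64 and 9.56 after 4 h, and 9.91, 10.06 and 9.95 after 6 h. It was called lower at 4 h, where it fell by 0.64 (SE 0.101, adjusted p = 0.000659), and its difference of -0.25 at 6 h was not called, with overlapping arrays. Kdm4b, of the same family, was also lowest at 4 h, with 7.91, 7.85 and 8.20 without RA, 7.62, 7.80 and 7.59 after 4 h and 7.98, 8.04 and 8.15 after 6 h. It fell by 0.32 at 4 h (adjusted p = 0.0244), but without untreated replicate C the adjusted p was 0.0591. The 6 h minus 4 h difference was 0.39 for both genes and was not called for either (adjusted p = 0.111 for Kdm4c and 0.0883 for Kdm4b).
Kdm4d was dim, below the median of all values (6.07), with 3.78, 3.94 and 4.14 without RA, 4.39, 4.42 and 4.12 after 2 h, 4.63, 4.14 and 4.64 after 4 h, and 4.38, 4.49 and 4.61 after 6 h. It was called higher by 0.52 at 4 h and 0.54 at 6 h (SE 0.141). Kdm3b and Kdm7a were not called at any time, with differences between -0.17 and 0.17.

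Of the 6 H3K4 erasers, 1 was called lower at 4 h and 1 at 6 h. Kdm1a, the amine oxidase of the CoREST complex, fell by 0.24 at 4 h (adjusted p = 0.0219), and Kdm5c, an X-linked demethylase, fell by 0.20 at 6 h (adjusted p = 0.0353, and 0.0677 without untreated replicate C). Kdm1a read 12.23, 12.28 and 12.24 after 4 h, against 12.45, 12.37 and 12.66 without RA. Kdm1b read 7.57, 7.67 and 8.24 without RA, 7.72, 7.54 and 7.65 after 2 h, 8.35, 8.25 and 8.11 after 4 h, and 8.17, 8.31 and 8.11 after 6 h. Untreated replicate C of Kdm1b lay among the 4 and 6 h arrays, and the differences of 0.41 and 0.37 were not called with it. Without that array they were 0.62 (adjusted p = 0.000419) and 0.58 (adjusted p = 0.00051). Kdm5a, Kdm5b and Kdm5d were not called, and Kdm5d, a Y-linked gene, was dim on all arrays (3.54 to 4.28). The brightest Kdm5b probe set differed by -0.17 at 4 h and -0.003 at 6 h. Of its 4 probe sets, 1 dimmer one was called higher at 4 h and 1 at 6 h, where the highest differences were 0.455 and 0.387.
Of the 3 genes counted here as H3K36 erasers, Kdm8 was called higher by 0.30 at 4 h and 0.29 at 6 h (SE 0.082). It read 7.57, 7.53 and 7.39 without RA, 7.86, 7.87 and 7.67 after 4 h, and 7.70, 7.80 and 7.86 after 6 h. Kdm2a and Kdm2b, which bind unmethylated CG-rich DNA, were not called against no RA, and untreated replicate C lay on opposite sides of A and B in them (9.25 against 9.82 and 9.80 in Kdm2a, 11.21 against 10.82 and 10.82 in Kdm2b).

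**Figure D3:**
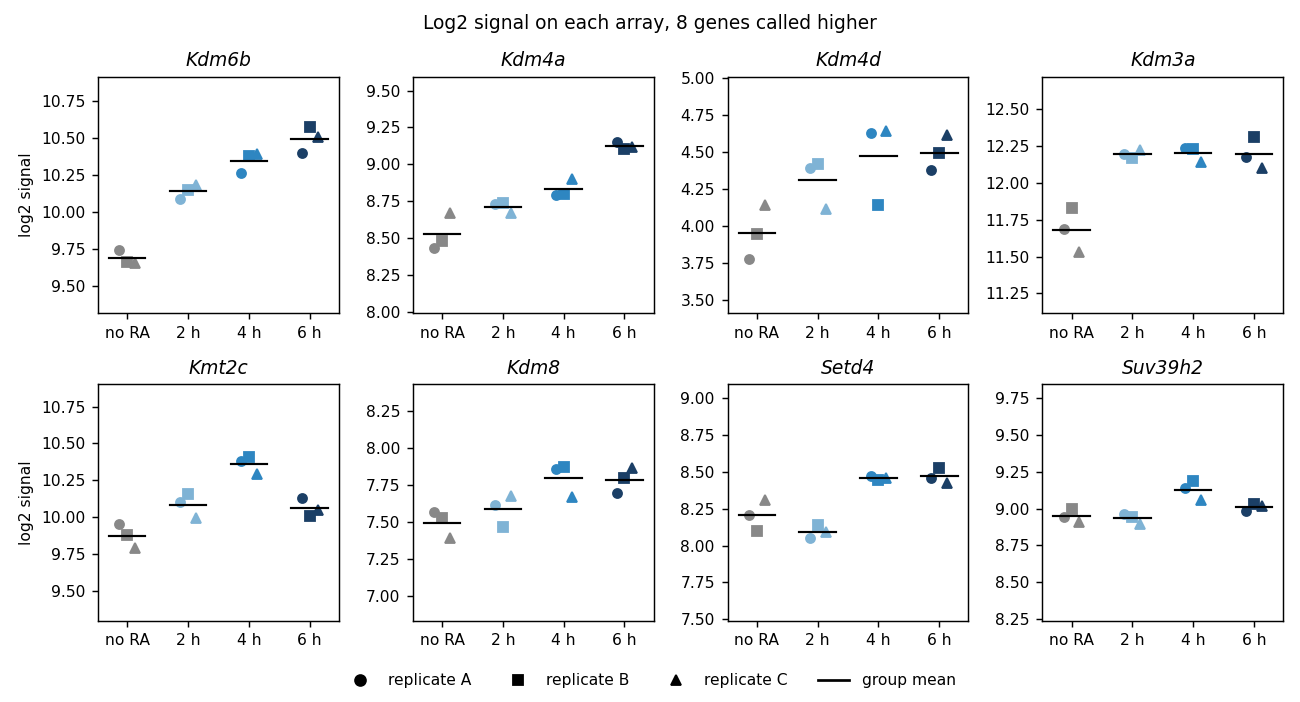
Log2 signal on each array for the 8 genes with the largest called rises and no overlap with the untreated arrays at that time, by hours of RA. Symbols are replicates and bars are group means. Kdm6b and Kdm4a have their highest means at 6 h, Kdm3a has the same level at 2, 4 and 6 h, and Kmt2c and Suv39h2 are highest at 4 h.

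Of the 19 writers, limma called 0 higher and 1 lower at 2 h, 2 and 4 (10.5% and 21.1%) at 4 h, and 0 and 3 (15.8% lower) at 6 h against no RA, where all genes had 12.8% and 14.1% at 4 h and 15.0% and 14.7% at 6 h. At 6 h against 2 h, 6 writers (31.6%) were called higher and 2 (10.5%) lower, where all genes had 17.1% and 15.1%. Setd7, which monomethylates H3K4 and several other proteins, read 9.00, 9.17 and 9.38 without RA, 8.85, 8.96 and 8.94 after 2 h, 8.45, 8.55 and 8.66 after 4 h, and 8.54, 8.58 and 8.61 after 6 h. No RA array reached the untreated ones. Its difference of -0.27 at 2 h was not called, and it fell by 0.63 at 4 h and by 0.61 at 6 h (SE 0.090, adjusted p = 0.000342 and 0.000346). When its 2 probe sets were averaged instead, the differences were -0.31 at 4 h and -0.18 at 6 h, with adjusted p-values of 0.0588 and 0.275.

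The other genes counted as H3K4 writers are the catalytic subunits of COMPASS-type complexes and Kmt2e, a SET protein of the same family. Kmt2c read 9.95, 9.88 and 9.79 without RA, 10.11, 10.15 and 10.00 after 2 h, 10.38, 10.41 and 10.29 after 4 h, and 10.13, 10.01 and 10.05 after 6 h. Its rise of 0.48 was called at 4 h (SE 0.068, adjusted p = 0.000307), while the differences of 0.21 at 2 h and 0.19 at 6 h were not. The mean of its probe sets gave 0.26 at 4 h (adjusted p = 0.0726).
Kmt2e read 9.72, 9.68 and 9.91 without RA, 9.39, 9.51 and 9.42 after 2 h, 9.46, 9.46 and 9.53 after 4 h, and 9.81, 9.76 and 9.96 after 6 h. It was the one member called lower at 2 h, where it fell by 0.33 (SE 0.076). It also fell by 0.29 at 4 h, and overlapped the untreated arrays at 6 h (0.07, not called). With its probe sets averaged it was called lower at 6 h, with a difference of -0.305 (adjusted p = 0.00505). Without untreated replicate C, the 2 h adjusted p was 0.0653. Kmt2a, Kmt2b, Kmt2d, Setd1a and Setd1b were not called at any time in the main fit. Setd1b had the widest untreated spread of them (SD 0.88), where replicate C minus the mean of A and B was -1.49. Its differences of 0.28, 0.68 and 0.58 at 2, 4 and 6 h (SE 0.313) were the highest of any writer by brightest probe set. Without untreated replicate A, Setd1b was called higher, by 1.03 at 4 h (adjusted p = 0.02) and 0.929 at 6 h (adjusted p = 0.0295). Of the 2 Setd1a probe sets, 1 was called lower at 4 h, where the lowest difference was -0.438.

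Among the H3K9 writers, Ehmt2 and Ehmt1, which form one complex that dimethylates H3K9, did not have the same calls. Ehmt2 read 10.95, 10.93 and 11.14 without RA, 10.82, 10.87 and 10.79 after 2 h, 10.51, 10.65 and 10.57 after 4 h, and 10.65, 10.75 and 10.75 after 6 h. It fell by 0.43 at 4 h and by 0.29 at 6 h (SE 0.071, adjusted p = 0.000851 and 0.00784), and its difference of -0.18 at 2 h was not called. Ehmt1 differed by -0.24 at 2 h, where its arrays lay below the untreated ones without a call (adjusted p = 0.125), and by 0.03 at 6 h. Suv39h2, which trimethylates H3K9 in heterochromatin, was called higher at 4 h only, by 0.18 (adjusted p = 0.0321, and 0.057 without untreated replicate C). It read 9.14, 9.18 and 9.06 after 4 h, against 8.94, 9.00 and 8.91 without RA.

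Of the 4 H3K36 writers, Nsd2 was called lower at 4 and 6 h. It read 9.54, 9.46 and 9.40 without RA, 9.27, 9.35 and 9.31 after 2 h, 9.11, 9.17 and 9.13 after 4 h, and 8.85, 8.75 and 8.97 after 6 h, with no overlap with the untreated arrays at any time. Its difference of -0.16 at 2 h was not called, and it fell by 0.33 at 4 h and by 0.61 at 6 h (SE 0.067, adjusted p = 0.00333 and 5.06e-05), or to 0.655 times its untreated level. With its probe sets averaged the 4 h difference was -0.11 (adjusted p = 0.181). The related Nsd1 and Nsd3, and Setd2, which trimethylates H3K36, were not called against no RA. Their brightest probe sets had differences between -0.19 and 0.17. Of the 4 Nsd1 probe sets, 1 was called higher at 4 h and 1 at 6 h, where the highest differences were 0.466 and 0.395. Of the 6 Nsd3 probe sets, 1 was called lower at 4 h, where the lowest difference was -0.434. Dot1l stayed within 0.06 of no RA at all times, and Kmt5a, Kmt5b and Kmt5c, the H4K20 writers, were not called.

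The other SET proteins were each called at 6 h, 1 higher and 3 lower, where 15.0% of all genes were higher and 14.7% lower. Setd6, known to methylate a subunit of NF-kappaB, read 10.27, 10.30 and 10.77 without RA, 10.30, 10.36 and 10.35 after 2 h, 9.93, 9.87 and 10.05 after 4 h, and 9.98, 10.05 and 10.09 after 6 h. It fell by 0.49 at 4 h and by 0.40 at 6 h (SE 0.112), but with its probe sets averaged the differences were -0.27 (adjusted p = 0.0664) and -0.13 (adjusted p = 0.38). Without untreated replicate C its falls were called, with differences of -0.33 and -0.24. Setd5 read 11.26, 11.10 and 11.30 without RA, 10.89, 10.94 and 10.84 after 4 h, and 11.04, 11.07 and 10.93 after 6 h. It fell by 0.33 at 4 h (adjusted p = 0.00351) and by 0.21 at 6 h (adjusted p = 0.0368, and 0.0862 without untreated replicate C). Setd3, an actin histidine methyltransferase, fell by 0.23 at 6 h (adjusted p = 0.0137), with 10.08, 10.15 and 10.26 after 6 h and 10.44, 10.34 and 10.41 without RA. Its other probe set differed by -0.03 at 6 h, and the average of both by -0.13 (adjusted p = 0.222). Setd4 rose by 0.25 at 4 h and 0.26 at 6 h (SE 0.064), with 8.21, 8.10 and 8.31 without RA, 8.47, 8.44 and 8.46 after 4 h, and 8.46, 8.53 and 8.42 after 6 h.

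**Figure D4:**
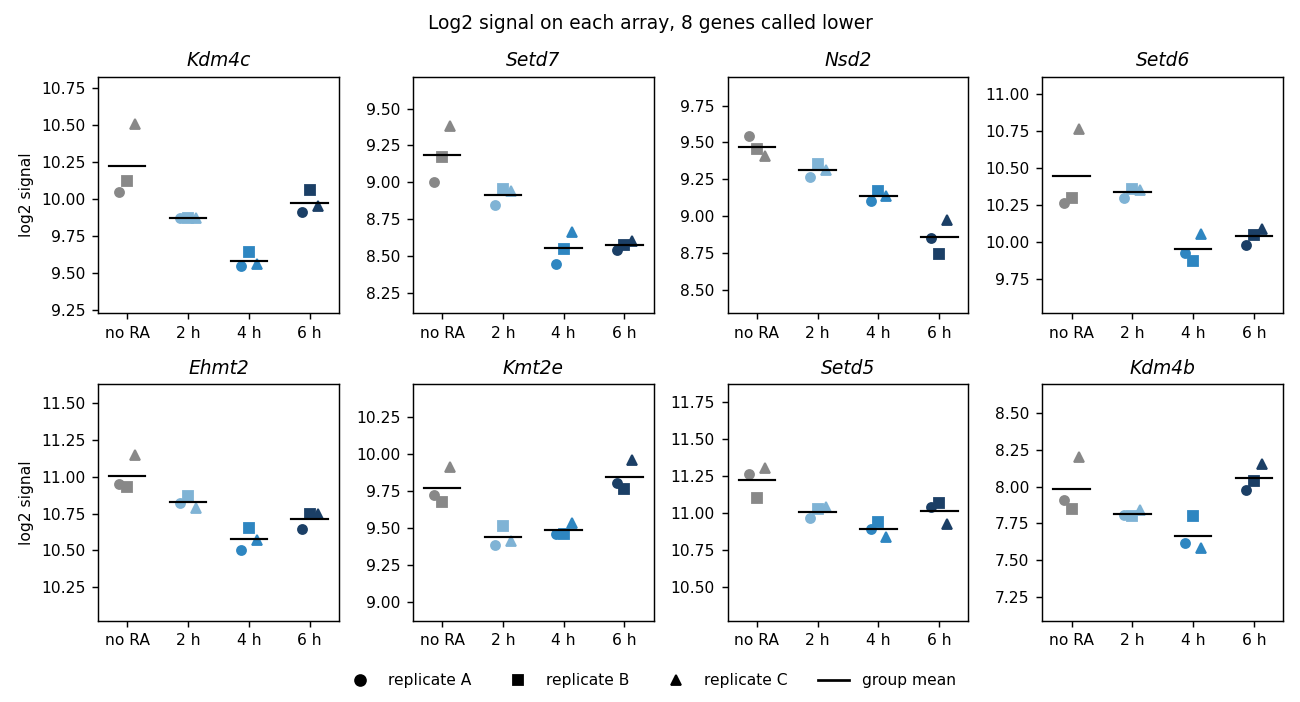
Log2 signal on each array for the 8 genes with the largest called falls and no overlap with the untreated arrays at that time, by hours of RA. Symbols are replicates and bars are group means. Nsd2 is lowest at 6 h, Setd7 is about as low at 4 h as at 6 h, and Kdm4c, Kdm4b and Kmt2e lie nearer the untreated arrays at 6 h than at 4 h.

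Set side by side, the median eraser lay above the median writer at each time. The median log2 difference from no RA was -0.05 for the 18 erasers and -0.16 for the 19 writers at 2 h, 0.08 and -0.06 at 4 h, and 0.15 and 0.03 at 6 h, while all 18193 genes had medians between -0.01 and 0.00. Between replicate arrays of a group, the SD of the median log2 signal of a class reached 0.137 for erasers and 0.108 for writers. That is a spread of signal levels and not of median differences, so it cannot measure how far these gaps vary. With 1 array left out, the eraser and writer medians at 4 h were -0.02 and -0.03 without untreated replicate A, 0.00 and -0.03 without the 4 h replicate A, and 0.02 and -0.09 without untreated replicate C, and at 2 h the eraser median was 0.02 without untreated replicate C. At 6 h, 5 erasers (27.8%) and 0 writers were called higher by limma (6 writers had an unadjusted p under 0.05 in either direction), and 1 eraser (5.56%) and 3 writers (15.8%) lower, against the 15.0% and 14.7% of all genes given above. The count of 0 is that of the main fit. Kmt2c was called higher at 6 h with quantile normalization (limma adjusted p = 0.0476), the dim filter (0.0302), and trend and robust variances (0.0343). The replicate block (0.0411) and leaving out untreated replicate A (0.0395) gave that call too. Nsd1 was called higher at 6 h with the dim filter (0.0426), Setd1b without untreated replicate A (0.0295) and Kmt5b with probe sets averaged (0.0456). Kmt2b was called higher with array weights (0.0415). It was also called higher without untreated replicate C (0.0147), where the erasers Kdm1b, Kdm2b, Kdm3b and Kdm7a were gained too. Of single probe sets, 3 of 55 for writers and 8 of 55 for erasers were called higher at 6 h. At 4 h, 5 erasers (27.8%) were higher and 3 (16.7%) lower, where all genes had 12.8% and 14.1%. The difference between the classes was not tested, and without untreated replicate C the medians at 6 h were 0.19 for erasers and 0.04 for writers. With probe sets averaged per gene the medians were 0.07 for erasers and -0.08 for writers at 6 h, and -0.02 and -0.11 at 4 h. Mean log2 signal over the 18 erasers was 9.22 to 9.27 on the 6 h arrays, against 9.02 to 9.13 on the untreated ones, with no overlap. On the 2 h arrays it was 9.06 to 9.09 and on the 4 h arrays 9.10 to 9.15, both overlapping the untreated ones. For the 19 writers the mean was 9.72 to 9.77 at 6 h, against 9.72 to 9.87 without RA, with overlap. No mean over all genes was set beside these.

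The RA times were also compared with each other. The differences use the RA arrays alone, but their SE and p come from the 12-array fit, whose variance the untreated arrays enter. From 2 to 4 h, 8 members were called higher and 4 lower (12.7% and 11.9% of all genes). Between 4 and 6 h, limma called 0 members in either direction (0.313% and 0.275% of all genes), with 8 at an unadjusted p under 0.05. At 6 h against 2 h, 12 members (29.3%) were higher and 3 (7.32%) lower, with 17.1% and 15.1% of all genes. Fitted on the RA arrays only, an alternative chosen after seeing the data, 12 members were higher and 6 lower from 2 to 4 h (16.4% and 15.5% of all genes), 5 and 2 from 4 to 6 h (2.40% and 1.50%), and 16 and 5 at 6 h against 2 h (20.5% and 19.2%). In the 12-array fit, the 12 called higher at 6 h against 2 h were 6 writers (Kmt2b, Kmt2d, Kmt2e, Ehmt1, Nsd1 and Setd2), 5 erasers (Kdm1b, Kdm2b, Kdm4a, Kdm5d and Kdm6b) and Setd4, and the 3 lower were Nsd2, Setd7 and Kdm5c.

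Kdm1b had the largest of these differences, 0.60 at 4 h against 2 h (adjusted p = 0.011) and 0.56 at 6 h against 2 h (adjusted p = 0.0118). Setd4 was 0.36 higher at 4 h than at 2 h, and 0.38 higher at 6 h than at 2 h. Kmt2e was 0.40 higher at 6 h than at 2 h (adjusted p = 0.00183). For Kmt2b, the main enzyme that trimethylates H3K4 at bivalent promoters, the differences were 0.29 and 0.37. Kmt2b read 10.33, 10.20 and 10.54 without RA, 10.04, 10.16 and 10.18 after 2 h, 10.40, 10.44 and 10.42 after 4 h, and 10.50, 10.47 and 10.51 after 6 h. Its untreated arrays lay above the 2 h ones and overlapped those at 4 and 6 h. Kmt2c was 0.27 higher at 4 h than at 2 h. From 2 to 4 h, Ehmt2 fell by 0.25 and Setd6 by 0.39. Against 2 h, Setd7 fell by 0.36 at 4 h and by 0.34 at 6 h, Nsd2 fell by 0.45 at 6 h, and Kdm5c fell by 0.22 and 0.24.

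Each member was also read through all of its probe sets, which share transcripts and are not replicates. Of 121 probe sets, 3 were called higher and 0 lower at 2 h (0.904% and 0.906% of all 45037 probe sets), with 35 at an unadjusted p under 0.05 in either direction, and with the lower count at 1 to 3 under some alternatives. At 4 h, 15 were higher and 17 lower (9.34% and 9.36%), and at 6 h, 14 were higher and 12 lower (10.8% and 9.83%). Of the 31 genes with several probe sets, some but not all were called for 17 at 4 h and 12 at 6 h, and all were called for 1 and 2 genes. Kdm6b was the clearest case of agreement: its 3 probe sets rose by 0.66, 0.62 and 0.56 at 4 h and by 0.81, 0.77 and 0.74 at 6 h, all called. At 2 h the brighter pair rose by 0.45 and 0.31, and the dimmest differed by 0.05 with no call.

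In several genes the brightest probe set did not stand for the others. Kmt5b, which lays down H4K20 methylation, was not called by its brightest, where untreated replicate C lay far from A and B. Without that array Kmt5b was called lower by the brightest, with -0.632 at 4 h and -0.552 at 6 h. Of its 4 other probe sets, 2 rose by 0.95 and 0.44 at 4 h, and by 1.09 and 0.67 at 6 h (limma adjusted p at 6 h over all probe sets = 2.01e-05 and 0.000607). Kdm5c had 9 probe sets, of which 1 fell by 0.94 at 4 h and 0.95 at 6 h, 1 fell by 0.25 at both, and 7 were not called, the brightest among them (adjusted p = 0.062 at 6 h in this fit).
Kmt2e had 2 dimmer probe sets that fell by 0.56 and 0.55 at 6 h, where the brightest was at 0.07. Setd4 had a dimmer probe set with a larger rise than its brightest, 0.66 at 4 h and 0.72 at 6 h. Setd6 was the one member with calls in opposite directions in 1 comparison: at 6 h its brighter pair fell by 0.40 and 0.33 and the dimmest rose by 0.34 (adjusted p = 0.0411). For Nsd2, the other probe sets differed by 0.02 to -0.12 at 4 h without a call, and at 6 h by -0.17 to -0.24, of which 1 was called.

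**Figure D5:**
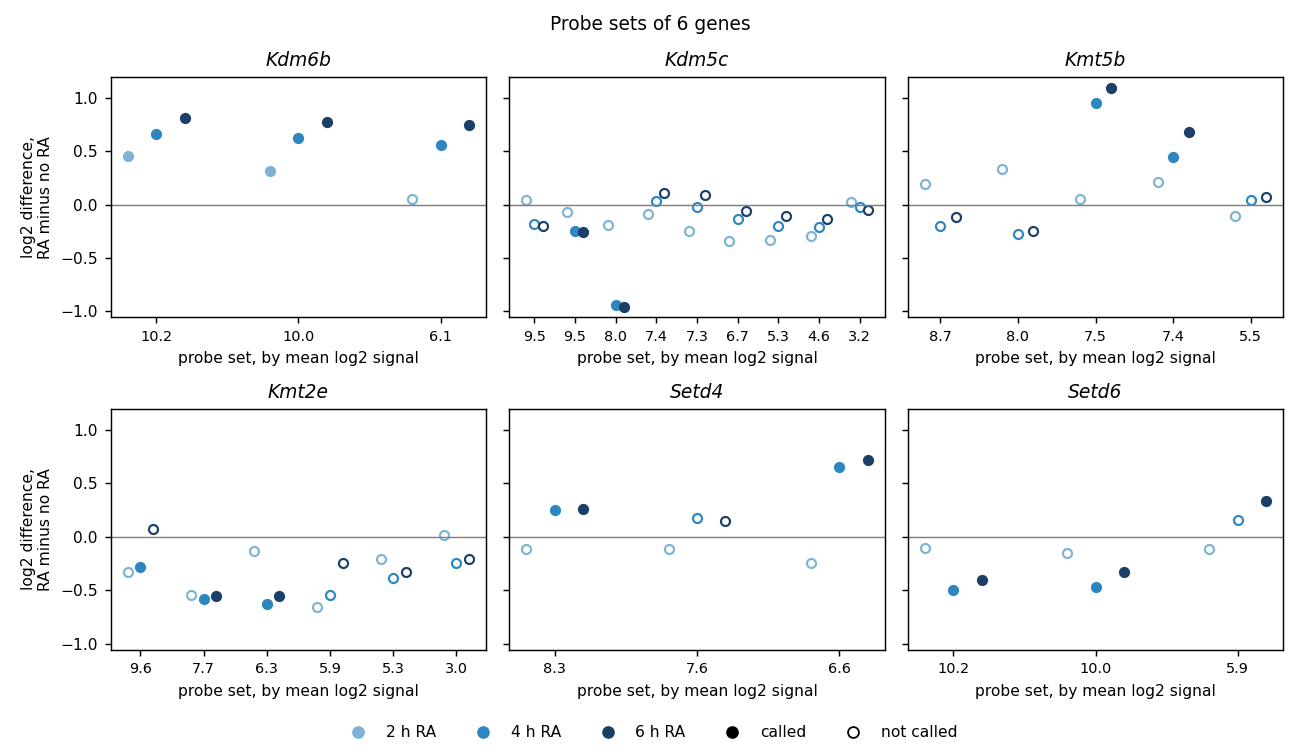
Log2 difference from no RA for every probe set of Kdm6b, Kdm5c, Kmt5b, Kmt2e, Setd4 and Setd6, ordered by the mean log2 signal given under each, brightest first, with points for 2, 4 and 6 h from left to right. Filled points were called. The Kdm6b probe sets lie together at 4 and 6 h but not at 2 h, while single probe sets of Kdm5c, Kmt5b and Setd6 lie apart from the rest.

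Genes outside the symbol rule that act on the same marks were read from 6 lists. As given above, all genes were called 1.50% higher and 1.19% lower at 2 h, 12.8% and 14.1% at 4 h, and 15.0% and 14.7% at 6 h. Of 15 other writers, 2 were called higher and 0 lower at 2 h, 3 and 3 at 4 h, and 4 and 2 at 6 h. Smyd2, which methylates H3K36 and p53, rose by 0.44, 0.86 and 0.93 at 2, 4 and 6 h, and Smyd4 by 0.66 and 0.75 at 4 and 6 h. Ezh1, a catalytic subunit of Polycomb repressive complex 2, fell by 0.68 at 4 h. Ezh2, the other catalytic subunit, which writes the mark that Kdm6b removes, fell by 0.34 at both 4 and 6 h (named after its values were seen).
Of 9 other erasers and JmjC proteins, 1 was higher and 1 lower at 2 h, 2 and 0 at 4 h, and 5 and 0 at 6 h. Hr, a JmjC corepressor, rose by 0.59 at 6 h, Jmjd6 by 0.33 at 4 h and 0.40 at 6 h, and Jarid2, a partner of Polycomb repressive complex 2, by 0.39 and 0.29.

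Partners of the members were read from the other 4 lists. Of 14 COMPASS partners, 0 were higher and 1 lower at 2 h, 4 and 1 at 4 h, and 3 and 1 at 6 h. The core subunit Wdr5 fell by 0.30 at 4 h and by 0.42 at 6 h. Men1, the menin subunit of the Kmt2a and Kmt2b complexes, fell by 0.25 at 2 h and rose by 0.26 and 0.39 at 4 and 6 h, and Pagr1a, of the Kmt2c and Kmt2d complexes, rose by 0.34 and 0.51. Of 8 CoREST partners of Kdm1a, limma called 0 higher at any time, and 0, 2 and 1 lower at 2, 4 and 6 h (4, 2 and 3 at an unadjusted p under 0.05 in either direction). Rcor3 fell by 0.82 at 4 h and fell by 0.62 at 6 h. Phf21a fell by 0.80 at 4 h.
Dot1l itself was not called, but of its 6 partners limma called 0 at 2 h (3 at an unadjusted p under 0.05), and 2 lower and 0 higher at 4 and 6 h. Mllt3, a reader subunit that recruits Dot1l, fell by 1.69 at 4 h and fell by 1.77 at 6 h (adjusted p = 7.88e-08), the largest change of any gene in the members and 6 lists, and Aff1, a scaffold of the super elongation complex, fell by 0.50 and 0.66. Of 9 H3K9 partners and readers, Wiz, a zinc finger subunit of the Ehmt1 and Ehmt2 complex, was the 1 called at 4 h, where it fell by 0.40. At 2 and 6 h limma called 0 of the 9, with 0 at an unadjusted p under 0.05.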

How the data were processed

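RNA of KH2 cells was read on 12 Affymetrix mouse arrays. The authors deposited 45101 values per array, as log2 signal per the labels. Of tools, the submitters' processing notes name limma 3.4.3. Background correction and normalization are not given in the sources used here, and array medians lay between 6.05 and 6.10. Nothing was normalized further. All 12 arrays were used, 3 per group as labelled.

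Probe sets were named from the platform annotation: 34958 had 1 gene, 932 several (left out) and 9211 none, and 64 were controls. Each of 18193 genes was read from its brightest probe set, and 45037 probe sets were fitted separately. The main model took group means through lmFit and eBayes of limma 3.58.1 (R 4.3.3, 8 residual and 3.78 prior degrees of freedom), with Benjamini-Hochberg adjusted p under 0.05 as a call. The code was tested on simulated data. SE is that of the fit. Figures were drawn with matplotlib 3.10.9.

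The members, lists and tests were chosen with earlier results of these data known. Named were the 8 largest called rises and falls without overlap between arrays, members with opposite probe sets, the 4 largest differences each way between RA times, and up to 3 called genes per list. The lists are other writers, other erasers and JmjC proteins, COMPASS, CoREST, Dot1l and H3K9 partners, embryonic stem cell and feeder markers, and RA targets. The labels do not say whether replicate letters pair the samples, and the main fit had no block. Of 18 same-letter pairs, 4 had deviations correlated over 0.1 (range -0.128 to 0.315). These were 4 h with 6 h in A (0.266) and C (0.315), and untreated C with 4 h C (0.153) and 6 h C (0.185). Whether same-letter samples shared a culture or batch was not tested. Alternatives covered normalization, the probe set per gene, a dim filter, the variance model, array weights, the arrays fitted, the threshold and leaving out arrays. Array number limits precision.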

Additional observations from a re-analysis of the deposited data

Results flagged for a closer look

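The change against no RA differed between 2 h and 6 h, by limma adjusted p under 0.05 for the difference itself, and had opposite signs at these times in 11 members. The share of all genes that meet both conditions was not counted. At 6 h against 2 h, 17.1% of all genes were called higher and 15.1% lower. The change at 6 h was above that at 2 h by 0.558 for Kdm1b, 0.405 for Kmt2e, 0.375 for Setd4, 0.369 for Kdm2b, 0.367 for Kmt2b, 0.364 for Kdm5d, 0.331 for Nsd1, 0.271 for Ehmt1, 0.251 for Setd2 and 0.218 for Kmt2d on the log2 scale. For Kdm5c it was below, with a difference of -0.244. Of the 22 single changes against no RA behind these differences, 3 were called, Kmt2e at 2 h, Setd4 at 6 h and Kdm5c at 6 h. The untreated arrays enter the variance behind these tests, though not the 6 h minus 2 h differences, and they enter the signs against no RA. Untreated replicate C lay 0.63 above the mean of A and B for Kdm1b and 0.39 above it for Kdm2b. Kdm5d was dim on every array.

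A probe set annotated to Kdm6b and 1700064E03Rik together was used in no comparison of members. It read 8.47, 8.52 and 8.45 without RA, 8.70, 8.77 and 8.96 after 2 h, 9.06, 8.95 and 9.07 after 4 h, and 9.12, 9.09 and 9.03 after 6 h. The difference was 0.33 at 2 h (adjusted p over all probe sets = 0.0525, not called), 0.55 at 4 h and 0.597 at 6 h (called), with every RA array above every untreated one. Which of its 2 genes it reads was not tested.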

How the results depend on the processing

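Under the alternatives run, none of the values of single members reversed a call of the main fit. Kmt5b, not called there, was called in both directions at 6 h. It was lower without untreated replicate C (-0.552) and with array weights (-0.445), and higher with probe sets averaged (0.294). Leaving aside the stricter threshold, 12 of the 33 calls against no RA held under every alternative that tested the gene: Kdm6b at each time, Kdm3a and Ehmt2 at 4 and 6 h, Kdm4c and Setd5 at 4 h, and Kdm4a, Kdm4d and Nsd2 at 6 h. The dim filter left Kdm4d and Kdm5d untested. With probe sets averaged per gene, calls were lost for Setd7 and Setd6 at 4 and 6 h, Kmt2c, Nsd2 and Kdm4a at 4 h, and Setd3 at 6 h, calls were gained for Kdm5c at 4 h, Nsd3 at 4 and 6 h, and Kmt2e, Kmt5b and Kmt5c at 6 h, and the median of writers at 6 h was -0.0812. The causes of these shifts were not tested, except that fits of fewer arrays have fewer degrees of freedom.

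Counts of members called that moved by over 1.5 times were as follows. Lower at 2 h there were 0 with quantile normalization, 0 with every probe set fitted, 2 with probe sets without a suffix, and 0 to 3 when 1 array was left out. Fitting only the groups compared gave 1 higher and 0 lower at 2 h, 3 higher at 4 h and 3 lower at 6 h. An adjusted p under 0.01 gave 0 lower at 2 h, 4 higher at 4 h and 3 lower at 6 h. Array weights gave 10 higher at 6 h. With 1 array left out, 5 to 10 were higher at 4 h, and 5 to 11 higher and 3 to 8 lower at 6 h. The lowest counts came without the 4 h replicate A (5 higher at 4 h) and the 6 h replicate A (3 lower at 6 h), and the count of 11 without untreated replicate C.

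The alternatives for the steps between RA times and for single probe sets were chosen after seeing the data. At 4 h against 2 h, 1 member was higher and 0 lower at an adjusted p under 0.01, 0 were lower with probe sets averaged, 13 were higher and 7 lower with array weights, 7 were lower with only the groups compared, and 2 to 7 were higher and 1 to 2 lower with 1 array left out (2 higher without the 4 h replicate B). At 6 h against 4 h, 2 were higher and 2 lower with the dim filter, 1 and 1 with trend and robust variances, 5 and 2 with array weights, 5 and 2 with only the RA groups, and 1 higher with only these 2 groups. At 6 h against 2 h, 7 were higher and 1 lower at an adjusted p under 0.01, and 5 were lower with array weights, with only the RA groups and with only these 2 groups.

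Member probe sets lower at 2 h numbered 3 with the dim filter, 3 with trend and robust variances, 1 with array weights, and 0 to 2 with 1 array left out. Only the groups compared gave 1 higher at 2 h, 10 lower at 4 h, and 9 higher and 5 lower at 6 h. An adjusted p under 0.01 gave 9 higher and 9 lower at 4 h, and 8 higher and 5 lower at 6 h. With 1 array left out, 7 to 17 were lower at 6 h (7 without the 6 h replicate B). With the replicate block, a pairing that the labels do not state, 7 members were higher and 5 lower at 6 h. It also gave 1 member probe set lower at 2 h, where the fit without the block had 0. The block moved no other of these counts by over 1.5 times. Kdm4d and Kdm5d lay below the median signal of all values.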
